A study of Mus musculus with 8 samples.

Results

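MH-S cells given lipopolysaccharide (LPS) were compared with MH-S cells given phosphate-buffered saline (PBS, the control) by sequencing of polyadenylated RNA. The members were the libraries titled as LPS treated (n = 2) and those titled as control (n = 3), 5 of the 8 libraries of the series, and the comparison ran across all genes with enough counts, 11911 of the 17518 listed. MH-S is an immortalized line of mouse alveolar macrophages, the resident phagocytes of the air spaces. The remaining 3 libraries came from cells given LPS at 100 ng/mL together with 1 µg/mL of nanoparticles named RCMNs, which respond to reactive oxygen species. They entered the fit for its estimate of spread and are not described here. A dose for LPS alone, the time of exposure and the origin of the replicates (separate cultures or not) were not stated in the labels, so all p-values here reflect the spread among these libraries alone, possibly a technical one.

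LPS is a glycolipid of the outer membrane of Gram-negative bacteria. CD14 passes it to the receptor complex of TLR4 and MD-2, which signals through MyD88 to NF-kB and MAP kinases and through TRIF to IRF3 and type I interferon. In macrophages this response is known for an early wave of cytokines and chemokines, for induced feedback inhibitors of the same pathway, and for the loss of genes that mark the resting state.

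The 5 libraries held 19.6 to 21.2 M (mega) counts, and a count of 0 allows a level of 0.130 to 0.182 CPM (counts for each M of TMM-scaled library), for counting error only. Between the LPS libraries 18 of 8377 genes of at least 10 CPM (0.215%) differed by over 2-fold. Control library 1 stood apart from control library 2, with 185 such genes (2.14%), while libraries 2 and 3 differed in 3. All 16 macrophage markers were tested, and their summed level was 7058 to 8274 CPM in the controls and 8074 to 9419 CPM with LPS. Of these, 7 were higher and 6 lower as counted, and 0 higher and 11 lower relative to genes of like length and level, with medians of -0.029 and -0.77. Relative to genes of like length alone, the fall was smaller (median -0.34): 7 markers passed as lower and 2 passed as higher. Of the genes that define alveolar macrophages in the lung, Siglecf had 0 to 0.186 CPM, Pparg 0.121 to 0.419 CPM and Marco 0 to 0.363 CPM in the 5 libraries, so these defining markers were at or near 0 in both groups.

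Fold change followed gene length. In the shortest decile of genes (157 to 1133 bases) the median log2 fold change, LPS over control, was 1.25 and 79.5% of genes passed the test as higher, whereas in the longest decile (from 6209 bases) it was -0.995 and 71.3% passed as lower. Among the shortest decile the median was 1.501 in the highest of 3 classes of level and 0.78 in the lowest. Each gene was therefore read in 2 ways, as counted and then relative to genes of like length and level, by removing a smooth surface of length and mean level from each library. Across genes, the rank correlation of length with the fold change was -0.58 as counted and -0.01 by the relative reading, a description over 11911 genes that are not independent. After the correction no decile had a median further than 0.06 from 0, but the shortest genes of the lowest class of level kept a median of -0.20. The surface was fitted to these same libraries, so a relative correlation and decile medians near 0 follow from its removal. They are no test of the correction. Whether the length trend arose in the cells or in the making of the libraries was not tested.

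**Figure D1:**
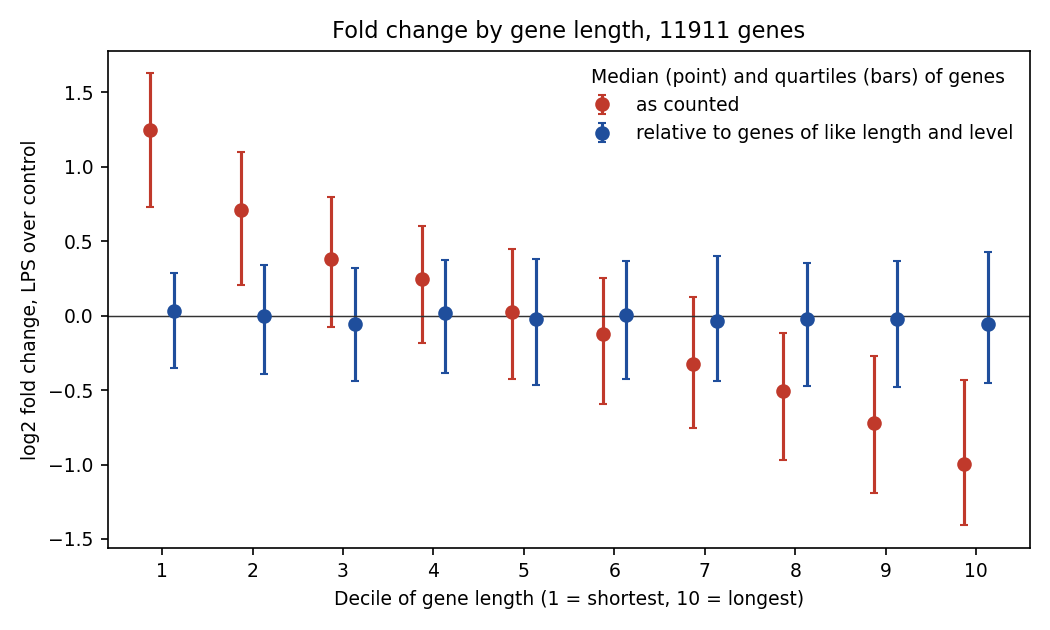
Median (points) and quartiles (bars) of the log2 fold change, LPS over control, of the genes in each decile of gene length, as counted (red) and relative to genes of like length and level (blue). The red medians run from 1.25 in the shortest decile to -0.995 in the longest. The blue medians stay within 0.06 of 0, which follows from how the correction is built.

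As counted, 3736 genes were higher with LPS (31.4% of genes tested) and 3818 were lower (32.1%), together 63.4%, at a Benjamini-Hochberg adjusted p below 0.05 in edgeR's quasi-likelihood test. With limma on log2(FPKM + 1), which leaves out the TMM scaling, the split was 2113 higher and 5924 lower. Of the 244 tested genes of the naming rule 19 lost their counted call or changed direction under limma (of those named below, Tnf, Cebpb, Map3k8, Dusp1, Irf7, Hmox1, Adgre1, Actb, Brd2, Pfkfb3, Cdk1, Pkm, Lyz2 and Tuba1b). Another 89 values moved by over 1.5-fold, and the cause was not tested. By the relative reading, 2540 genes were higher (21.3%) and 2526 lower (21.2%). Leaving out LPS library 1 lowered these to 1652 and 1469, and leaving out LPS library 2 to 1728 and 1561. Both readings called 1822 genes higher (15.3%) and 1873 lower (15.7%), and they called 307 (2.58%) in opposite directions. The CPM values of the groups did not overlap for 37.5% of genes with LPS higher and for 38.6% with LPS lower.

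Here "rose" and "fell" are used of genes that passed in both readings. A pair of log2 fold changes gives the counted and then the relative one, and like genes are the 200 nearest in length and level. The value after ± is the absolute log2 fold change over the square root of its F statistic, an approximate standard error. It is not a spread between libraries and does not give the counting error of a group near 0. CPM values stand in the order of the replicate numbers, and "without either LPS library" means with each of them left out in turn. With a stricter filter (at least 10 CPM in 2 libraries) the surface is fitted on fewer genes, and the relative value under it is given where it differs by over 1.5-fold. All genes tested had median log2 fold changes of -0.04 as counted and -0.02 by the relative reading. The counts in each list below are to be read beside the shares of all genes tested. These were 31.4% higher and 32.1% lower as counted, and 21.3% and 21.2% by the relative reading.

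**Figure D2:**
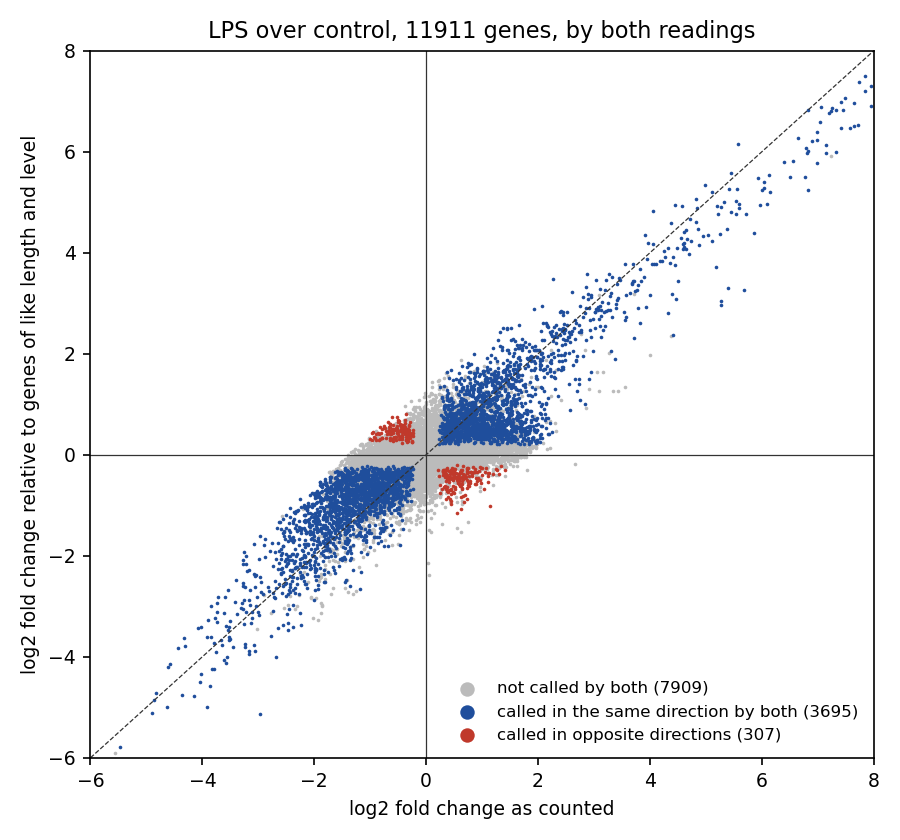
Log2 fold change of each gene as counted (x axis) and relative to genes of like length and level (y axis), LPS over control. Blue points passed in the same direction by both readings (3695), red points in opposite directions (307), grey points are the rest, the dashed line marks equal values, and 30 genes lie beyond the axes.

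The receptor of LPS was lower in the treated cells. Tlr4 (chromosome 4, 66827551 to 66846581 on GRCm38.p6), the signalling receptor, had 122, 78.4 and 80.6 CPM in the control libraries and 22.04 and 20.96 CPM in the LPS libraries. All LPS values lay below all control values, with log2 fold changes of -2.13 ± 0.27 as counted and -1.06 ± 0.26 relative to like genes (adjusted p = 1.38e-04 and 0.0114, edgeR), and its like genes had a median of -1.06. The relative value was -1.14 without LPS library 1 and -0.98 without LPS library 2, and neither passed. Cd14, the co-receptor that hands LPS to Tlr4, had 111, 211 and 210.3 CPM in the controls and 364 and 403 CPM with LPS. It passed as counted (log2 1.11) and not by the relative reading (0.25 ± 0.25).

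Of 33 tested genes of LPS sensing and signalling, 9 were higher and 18 lower as counted, and 11 higher and 10 lower by the relative reading, with medians of -0.35 and 0.019; without LPS library 1, the relative reading called 6 lower. Several other sensors fell. Tlr5, the receptor of flagellin, had 11.5, 9.82 and 10.2 CPM in the controls and 0.303 and 0.545 CPM with LPS. Its groups were far apart, and its relative value was the lowest among genes that fell without overlap from at least 10 CPM (-4.61 and -4.19; relative value -5.16 with the stricter filter). Tlr8, a receptor of RNA in endosomes, had 12.6, 11.9 and 12.5 CPM in the controls and 1.51 and 1.03 CPM with LPS (-3.27 and -2.53). Tlr6, a partner of Tlr2 for bacterial lipopeptides, had 13.6, 12.99 and 14.4 CPM in the controls and 3.69 and 5.03 CPM with LPS (-1.65 and -1.34). Cd180, a Tlr4-like surface receptor, fell (-1.41 and -1.76), as did Ly86, which encodes its partner MD-1 (-1.999 and -2.87; as counted -1.37 and not called without LPS library 1, and -3.13 without LPS library 2; relative values of -2.15 and -3.60).

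Several genes downstream of the receptors rose. Irak3, a kinase homologue that dampens Toll-like receptor signals, had 21.1, 16.5 and 16.5 CPM in the controls and 104 and 89.2 CPM with LPS. Every LPS value was above every control value, with log2 fold changes of 2.42 ± 0.13 as counted and 2.499 ± 0.12 relative to like genes. Casp4 (caspase-11 in the mouse), which binds LPS in the cytosol, had 4.77, 3.49 and 3.90 CPM in the controls and 14.9 and 16.8 CPM with LPS and rose (1.96 and 1.52; relative value 0.70 with the stricter filter). The kinases Ikbke (1.18 and 1.10) and Map3k8 (1.17 and 1.37) rose. Without LPS library 2, Map3k8 did not pass (0.79 and 1.06), nor did Ikbke by the relative reading (0.86).

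NF-kB is held in the cytoplasm by IkB proteins and, once released, induces its own inhibitors. Of 29 genes of NF-kB and its feedback, 16 were higher and 5 lower as counted, and 17 higher and 2 lower by the relative reading, with medians of 0.85 and 1.25. The number lower as counted was 3 without control library 2, control library 3 or LPS library 1, and the number lower by the relative reading was 4 without control library 1. Nfkbia, the inhibitor IkB-alpha, had 28.4, 38.7 and 39.6 CPM in the control libraries and 179 and 208 CPM in the LPS libraries. Every LPS value was above every control value, with log2 fold changes of 2.44 ± 0.14 as counted and 1.74 ± 0.15 relative to like genes. Tnfaip3, which encodes the ubiquitin-editing inhibitor A20, had 8.496, 14.01 and 12.1 CPM in the controls and 66.5 and 73.8 CPM with LPS. Its relative fold change (3.23 ± 0.37) was above the counted one (2.60 ± 0.37), and genes of its length and level had a median of -0.60.

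Traf1, an NF-kB target that binds TNF receptor family members, had 0.694, 1.26 and 0.883 CPM in the controls and 45.2 and 37.1 CPM with LPS. The groups were over 20 CPM apart, with log2 fold changes of 5.44 ± 0.23 as counted and 5.58 ± 0.25 relative to like genes (4.75 with the stricter filter). Zc3h12a, the ribonuclease regnase-1 that degrades cytokine mRNAs, had 8.37, 12.4 and 11.5 CPM in the controls and 44.7 and 66.6 CPM with LPS and rose (2.37 and 2.48). Socs3, an inhibitor of cytokine receptor signals, had 18.2, 13.97 and 13.9 CPM in the controls and 75.4 and 93.8 CPM with LPS and rose by nearly the same in both readings (2.46 and 2.47). The mRNA-destabilizing proteins Zfp36l2 (-1.69 and -1.63) and Zfp36l1 (-0.92 and -0.91) fell.

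Cytokines of the acute response went from near 0 in the controls to clear levels with LPS. Il1b (chromosome 2, 129364569 to 129371164), which encodes the pyrogenic cytokine interleukin-1 beta, had 0.0433, 0.233 and 0.232 CPM in the control libraries and 354 and 349 CPM in the LPS libraries. The controls held 11 counts in all, so the size of the change (log2 10.99 ± 0.22 as counted and 10.51 ± 0.23 relative to like genes) rests on a near-zero base. Il1a, its cell-associated relative, had 0.217, 0.140 and 0.186 CPM in the controls and 63.1 and 75.4 CPM with LPS (8.53 and 8.57). Il6, the inducer of the acute phase, had 0.217, 0.605 and 0.418 CPM in the controls and 108 and 133 CPM with LPS (8.18 and 7.55). The controls of both stayed under 1 CPM. With the stricter filter the relative values were 9.77 for Il1b, 6.94 for Il1a, 6.43 for Il6 and 7.58 for Csf3. Csf3, which encodes the granulocyte growth factor G-CSF, had 0, 0.0466 and 0.232 CPM in the controls and 84.8 and 84.998 CPM with LPS and rose (9.77 and 9.43; as counted 11.53 without control library 3). Its controls held 6 counts in all, 5 of them in library 3. Il12b, the p40 chain of interleukin-12 and -23, had 1 count over the 3 control libraries and 210 over the LPS libraries, a ratio of 420.2 with a 95% exact counting interval of 74.6 to 16673.

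The inhibitor of interleukin-1 rose too. Il1rn, which encodes the interleukin-1 receptor antagonist, had 26.9, 35.4 and 36.1 CPM in the control libraries and 819 and 647 CPM in the LPS libraries. The groups did not overlap (log2 4.48 ± 0.25 as counted and 4.10 ± 0.26 relative to like genes, adjusted p = 1.25e-05 by the relative reading in edgeR). Tnf, the early inflammatory cytokine, had 26.2, 78.1 and 75.2 CPM in the controls and 99.9 and 176 CPM with LPS, and the higher LPS value was that of library 2. It passed as counted (1.21 ± 0.39) and not by the relative reading (0.49 ± 0.41), where its like genes had a median of 0.70. Without LPS library 2 the counted value was 0.74 and did not pass, nor did it (1.23) in a fit of only the 5 control and LPS libraries. Il10 and Ifnb1, an anti-inflammatory cytokine and an early interferon, had too few counts to test, with at most 0.242 and 0.0606 CPM in the 5 libraries.

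Of the 24 cytokine genes tested, 14 were higher and 4 lower as counted, and 12 higher and 3 lower by the relative reading (medians 1.02 and 0.75), and 2 were lower as counted without LPS library 1. Vegfa, the endothelial growth factor, had 105, 113 and 105 CPM in the controls and 30.2 and 35.5 CPM with LPS, with no overlap (-1.71 and -1.60). Il15, a growth factor of natural killer and memory T cells, had 5.24, 5.96 and 5.53 CPM in the controls and 1.88 and 2.18 CPM with LPS and fell (-1.46 and -1.85). Tnfsf9, the ligand 4-1BBL, fell (-0.85 and -1.62; as counted -0.70 and not called without LPS library 1).

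Chemokines, the attractants of leukocytes, were higher with LPS. Of 16 tested, 13 were higher and 0 lower as counted, and 10 higher and 0 lower by the relative reading, with medians of 3.42 and 2.10, or 3.16 and 2.10 with Cxcl3 at its lower bound; without control library 1, 3 were lower by the relative reading. Their like genes had a median of 0.77. Cxcl2, a neutrophil attractant, had 0.564, 2.002 and 1.95 CPM in the controls and 144 and 197 CPM with LPS. It rose with log2 fold changes of 6.83 and 6.01. Its relative Cxcl3 had no count in the controls and 0.848 and 1.64 CPM with LPS, at least 8.89-fold higher with the floor set at 3 counts per library; its relative call was lost without LPS library 2.

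Cxcl10, an interferon-induced attractant of T cells, had 1.47, 2.19 and 2.04 CPM in the control libraries and 125 and 127 CPM in the LPS libraries. The LPS values were nearly equal and far above the controls (log2 6.05 ± 0.17 as counted and 5.29 ± 0.17 relative to like genes). Ccl5, which attracts T cells and monocytes, had 0.824, 1.44 and 0.975 CPM in the controls and 63.7 and 62.2 CPM with LPS and rose (5.86 and 4.39). Ccl2, an attractant of monocytes, had 48.3, 258 and 261 CPM in the controls and 1608 and 1785 CPM with LPS. It passed as counted (3.17 ± 0.63) and not by the relative reading (1.65 ± 0.63). Control library 1 was the lowest of the controls for Cxcl2, Cxcl10, Ccl5 and Ccl2.

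**Figure D3:**
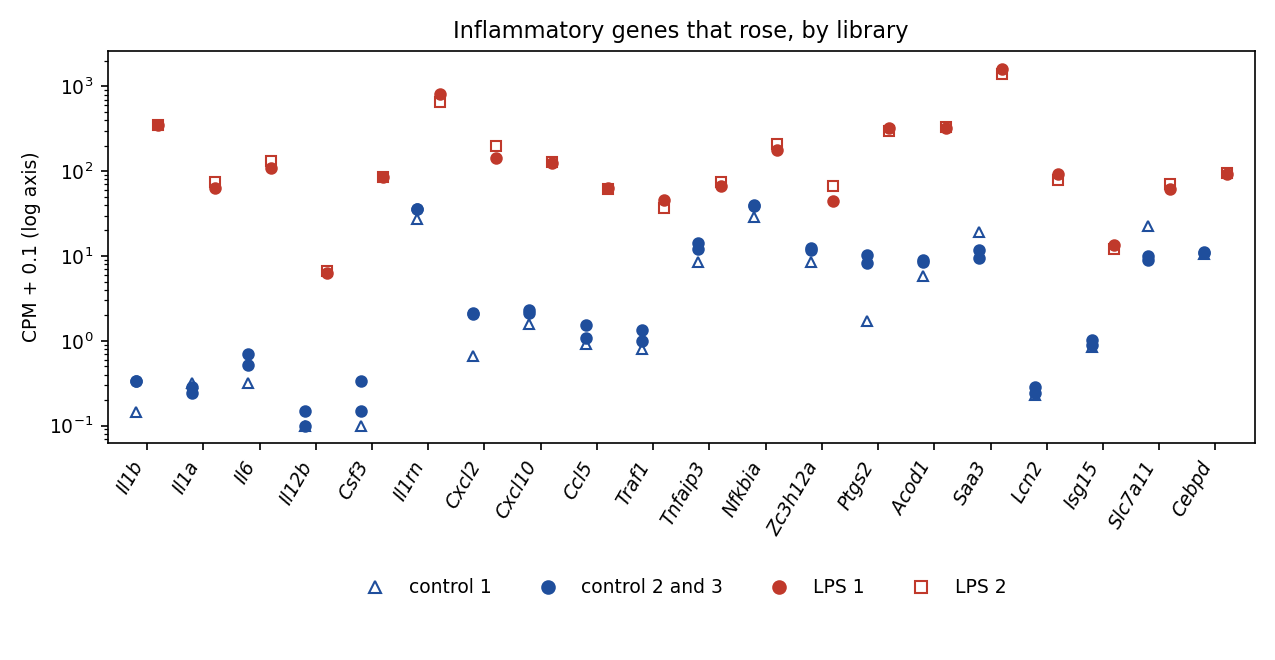
Level of 20 genes that rose, in each of the 5 libraries, as CPM + 0.1 on a log axis (blue, 3 control libraries; red, 2 LPS libraries; genes in italics on the x axis). In each gene both red points lie above the 3 blue ones, and Il1b, Il6, Csf3 and Lcn2 start from control levels under 1 CPM.

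Promoter sequences show where the letters of known response elements stand in genes of this response. Each stretch shown is the 150 bases before the start site in RefSeq (build GRCm38.p6), 5′ to 3′ on the gene's strand, from a gene that rose and holds a match. Capitals mark a kappaB-type motif, GGG, any 2 bases and TTTCC, or its reverse complement, GGAAA, any 2 bases and CCC:
Il6: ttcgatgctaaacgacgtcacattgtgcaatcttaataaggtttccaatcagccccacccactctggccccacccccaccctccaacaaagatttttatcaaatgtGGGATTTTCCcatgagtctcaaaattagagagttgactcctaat
Cxcl2: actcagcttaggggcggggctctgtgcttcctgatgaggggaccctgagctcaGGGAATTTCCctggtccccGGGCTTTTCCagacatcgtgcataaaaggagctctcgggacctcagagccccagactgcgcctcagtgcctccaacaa
Nfkbia: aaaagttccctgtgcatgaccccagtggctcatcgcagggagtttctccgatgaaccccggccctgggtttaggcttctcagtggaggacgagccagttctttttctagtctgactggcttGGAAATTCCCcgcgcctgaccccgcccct
They lie at chr5:30012964-30013113 (+ strand), chr5:90903749-90903898 (+ strand) and chr12:55492648-55492797 (- strand). Il6 holds 1 match at -44, Cxcl2 holds 2 at -97 and -78, and Nfkbia holds 1 at -29, counted from the start site. In the window from 250 bases before to 50 after the start, 162 of the 9629 tested genes with a RefSeq promoter held this motif (1.68%). Of the NF-kB and feedback genes 6 of 24 did (25%), of the chemokines 3 of 11 and of the cytokines 2 of 16. Among genes that rose with a relative log2 fold change of at least 1, 2.79% held it, and among those with a relative log2 fold change of -1 or less, 2.69%. A match is a description of letters and shows no binding.

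In the next set capitals mark an interferon response-type motif, GAAA, any 2 bases and GAAA, or its reverse complement, TTTC, any 2 bases and TTTC, with overlapping matches merged:
Isg15: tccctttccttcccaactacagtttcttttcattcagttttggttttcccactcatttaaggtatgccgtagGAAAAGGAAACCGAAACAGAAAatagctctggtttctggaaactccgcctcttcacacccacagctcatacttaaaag
Ifit1: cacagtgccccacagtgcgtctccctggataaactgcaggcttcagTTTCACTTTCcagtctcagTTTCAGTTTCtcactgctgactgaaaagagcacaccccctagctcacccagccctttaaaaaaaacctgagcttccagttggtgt
They lie at chr4:156200819-156200968 (- strand) and chr19:34640739-34640888 (+ strand). Isg15 holds 3 overlapping matches at -78, -72 and -66, and Ifit1 holds 2 at -104 and -85. The motif stood in 3.18% of all promoters (306 of 9629) and in 22 of 37 promoters of the interferon list (59.5%). It stood in 5.74% of the promoters of genes that rose with a relative log2 fold change of at least 1 and in 2.54% of those that fell with one of -1 or less.

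Interferon-stimulated genes encode antiviral proteins and are induced by LPS through interferon and IRF factors. Of 46 tested, 31 were higher and 3 lower as counted, and 28 higher and 3 lower by the relative reading, with medians of 0.72 and 0.73; without LPS library 1, 1 was lower as counted. Isg15, a ubiquitin-like modifier, had 0.737, 0.931 and 0.790 CPM in the control libraries and 13.3 and 11.99 CPM in the LPS libraries. The groups were well apart (log2 3.94 ± 0.25 as counted and 2.93 ± 0.25 relative to like genes), but with the stricter filter the relative value was 0.88. Ifit1, a sensor of viral RNA caps, had 0.780, 1.12 and 0.650 CPM in the controls and 4.66 and 3.70 CPM with LPS and rose (2.29 and 2.53). Gbp2, a GTPase that attacks pathogen membranes, had 0.564, 0.326 and 0.464 CPM in the controls and 5.81 and 3.39 CPM with LPS. It rose (3.33 and 3.52), with the higher value in LPS library 1. Slfn5, a Schlafen family member, had 0.477, 0.745 and 0.511 CPM in the controls and 2.36 and 3.76 CPM with LPS and rose (2.40 and 2.82).

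Regulators of the interferon system did not all move with its targets. Irf7, which amplifies interferon, had 9.97, 12.9 and 12.7 CPM in the controls and 26.5 and 24.4 CPM with LPS. It passed as counted (1.10 ± 0.30; 1.04 and not called without LPS library 1) and not by the relative reading (0.74 ± 0.32). Irf1, an activator, had 16.8, 10.5 and 12.5 CPM in the controls and 6.78 and 8.18 CPM with LPS and fell (-0.83 and -0.83; -0.70 and -0.72 without LPS library 1, neither called). Irf2, its antagonist, had 62.8, 65.1 and 64.1 CPM in the controls and 24.04 and 23.9 CPM with LPS, with no overlap and log2 fold changes of -1.42 ± 0.10 as counted and -1.54 ± 0.11 relative to like genes. Ifi47, an interferon-gamma-induced GTPase, fell (-0.52 and -0.75; as counted -0.50 and not called without LPS library 1).

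Of 34 acute phase and effector genes, 25 were higher and 2 lower as counted, and 25 higher and 1 lower by the relative reading, with medians of 1.81 and 1.66; without either LPS library, 0 were lower as counted. Lcn2, an iron-sequestering antibacterial protein, had 0.130, 0.140 and 0.186 CPM in the controls and 93.7 and 78.4 CPM with LPS. The controls held 10 counts, and the log2 fold changes were 9.09 and 8.06. Saa3, a serum amyloid made by macrophages, had 19.2, 11.7 and 9.38 CPM in the controls and 1621 and 1407 CPM with LPS. It rose (6.82 and 5.24), beside like genes with a median of 1.58. Acod1, which makes the antibacterial metabolite itaconate, had 5.76, 8.47 and 8.83 CPM in the control libraries and 321 and 336 CPM in the LPS libraries. Its log2 fold changes were close in both readings (5.42 ± 0.25 as counted and 5.27 ± 0.26 relative to like genes). Nos2, the inducible nitric oxide synthase, had 0.130, 0 and 0.139 CPM in the controls and 2.85 and 2.61 CPM with LPS, with log2 fold changes of 4.82 and 5.06 on 6 control counts. Sod2, the mitochondrial superoxide dismutase, had 114, 104 and 103 CPM in the controls and 832 and 719.8 CPM with LPS and rose (2.86 and 2.91).

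The 2 cyclooxygenase genes moved in opposite directions. Ptgs2, the inducible enzyme, had 1.60, 10.1 and 8.08 CPM in the control libraries and 323 and 301 CPM in the LPS libraries, and its log2 fold changes were 5.57 ± 0.61 as counted and 6.15 ± 0.62 relative to like genes. Ptgs1, the constitutive enzyme, had 107, 127 and 129 CPM in the controls and 29.2 and 35.99 CPM with LPS and fell (-1.89 and -1.76). The prostaglandin E synthases Ptges (1.45 and 1.88) and Ptges2 (1.43 and 1.10) rose. Alox5, which starts leukotriene synthesis, had 13.05, 10.3 and 10.2 CPM in the controls and 2.72 and 2.12 CPM with LPS and fell (-2.20 and -1.90). Ltc4s, leukotriene C4 synthase, had 2.12, 2.002 and 2.18 CPM in the controls and 0.787 and 0.848 CPM with LPS and fell (-1.36 and -2.60). Tbxas1, thromboxane synthase, fell (-2.38 and -2.42), a relative call lost without either LPS library (-2.11 and -2.80) and a counted one lost without LPS library 1 (-2.04). Its relative value was -3.33 with the stricter filter. Of the 19 eicosanoid genes tested, 8 were higher and 8 lower as counted, and 4 higher and 8 lower by the relative reading; without LPS library 1, 5 were higher as counted and 5 lower by the relative reading.

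Immediate early genes, the first to respond in most cells, showed no common direction. Of 24 tested, 7 were higher and 3 lower as counted, and 7 higher and 4 lower by the relative reading; without LPS library 1, 1 was lower by either reading, and without control library 3, 1 as counted and 2 relatively. Egr3, a zinc-finger factor of growth factor signalling, had 25.6, 69.6 and 69.8 CPM in the control libraries and 2.36 and 3.15 CPM in the LPS libraries. Control library 1 was the lowest control, and still over 20 CPM above both LPS libraries (log2 -4.32 ± 0.56 as counted and -3.78 ± 0.56 relative to like genes). Egr1 had 36.97, 93.3 and 85.8 CPM in the controls and 25.7 and 35.6 CPM with LPS, passing as counted (-1.23 ± 0.43) and not by the relative reading (-1.15 ± 0.44). The counted call of Egr1 was lost without control library 2 (-1.001), control library 3 (-1.09), LPS library 1 (-1.01) or LPS library 2 (-1.49). Myc, a driver of growth, had 0.347, 1.77 and 1.30 CPM in the controls and 7.57 and 9.39 CPM with LPS and rose (2.90 and 3.08). Atf3, a stress-induced repressor, had 124, 110.5 and 105 CPM in the controls and 278 and 249.1 CPM with LPS, which passed as counted (1.22 ± 0.23) and not relatively (0.64 ± 0.25).

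Of 13 genes of feedback on MAP kinases, 4 were higher and 4 lower as counted (30.8% each), near the shares of all genes tested (31.4% and 32.1%). By the relative reading 2 were higher and 3 lower (15.4% and 23.1%), beside 21.3% and 21.2% of all genes tested. Dusp16, a phosphatase of JNK and p38, had 26.4, 31.1 and 28.01 CPM in the controls and 65.8 and 59.2 CPM with LPS and rose (1.13 and 1.85). Dusp6, a phosphatase of ERK, had 186, 289 and 279 CPM in the controls and 62.9 and 81.4 CPM with LPS, with no overlap (-1.80 and -2.02). Dusp7, also an ERK phosphatase, had 152, 169 and 166 CPM in the controls and 56.3 and 49.6 CPM with LPS and fell (-1.62 and -1.62), and Spred1, an inhibitor of the RAS to ERK path, fell too (-1.47 and -1.05). Dusp1, a phosphatase of p38, had 4.90, 7.68 and 6.64 CPM in the controls and 10.7 and 15.6 CPM with LPS. It passed as counted (1.04 ± 0.33) and not relatively (0.93 ± 0.34), and the counted call was lost without control library 1 (0.88) or LPS library 2 (0.74). Dusp8 had no count in the controls and 1.27 and 0.969 CPM with LPS, at least 8.02-fold higher.

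Of 29 transcription factors of the macrophage lineage, 7 were higher and 14 lower as counted, and 5 higher and 14 lower by the relative reading, and without either LPS library 9 were lower by the relative reading. Maf, a factor of resident macrophages, had 63.3, 34.8 and 35.9 CPM in the control libraries and 4.72 and 5.39 CPM in the LPS libraries. Its groups did not overlap (log2 -3.14 ± 0.41 as counted and -2.68 ± 0.39 relative to like genes). Hhex fell (-1.02 and -1.55), as did Irf4 (-2.24 and -1.55; relative value -1.10 and not called without LPS library 2).

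Other factors rose. Cebpd, a partner of NF-kB in sustained Toll-like receptor responses, had 10.5, 10.8 and 11.1 CPM in the controls and 91.7 and 95.2 CPM with LPS and log2 fold changes of 3.11 and 2.96. Prdm1, the repressor BLIMP-1, had 0.173, 0.605 and 0.557 CPM in the controls and 2.06 and 4.60 CPM with LPS and rose (2.90 and 3.19; 2.21 as counted without LPS library 2). Ets2, an ERK-responsive factor, had 110.1, 182 and 172 CPM in the controls and 329.6 and 307 CPM with LPS and rose (1.04 and 1.06). Cebpb, which drives many acute phase genes, differed between the LPS libraries, with 23.4, 24.999 and 24.1 CPM in the controls and 69.03 and 33.9 CPM with LPS. It passed as counted (1.09 ± 0.41) and not relatively (0.46 ± 0.39), and the counted call was lost without any 1 of the 5 libraries but LPS library 2, at 0.49 without LPS library 1 and 1.07 without control library 1.

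Heat shock proteins, which hold and refold other proteins, were higher in 19 of 22 genes as counted and in 16 by the relative reading, with none lower by either (medians 1.09 and 0.58). Hspa1b and Hspa1a are near-identical copies of the inducible HSP70, between which reads may be split. Hspa1b had 0.347, 0.233 and 0 CPM in the controls and 1035 and 981 CPM with LPS. Hspa1a had 0.390, 0 and 0.372 CPM in the controls and 937 and 577 CPM with LPS. The LPS levels stood against 13 and 17 control counts, with relative log2 values of 12.58 and 11.80 (Hspa1b 13.28 without control library 1). With the stricter filter they were 11.62 and 10.47. Hspa8, the constitutive family member, had 2376, 3440.3 and 3371 CPM in the controls and 14118 and 12908 CPM with LPS and rose (2.14 and 1.03; relative value 1.87 with length alone corrected). The co-chaperone Dnaja1 had 97.7, 139.8 and 131 CPM in the controls and 335 and 337 CPM with LPS and rose (1.45 and 1.44).

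Hspe1, the mitochondrial co-chaperonin, was chosen for its promoter after its values were seen, and rose with log2 fold changes of 2.06 and 0.56. Its stretch lies at chr1:55087998-55088147 (+ strand), and capitals mark a heat shock-type motif, GAA, any 2 bases, TTC, any 2 bases and GAA, or its reverse complement, TTC, any 2 bases, GAA, any 2 bases and TTC:
Hspe1: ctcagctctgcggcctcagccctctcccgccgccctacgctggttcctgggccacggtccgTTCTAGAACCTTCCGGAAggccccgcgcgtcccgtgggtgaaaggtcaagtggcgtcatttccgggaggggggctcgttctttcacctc
It holds 2 overlapping matches at -89 and -84. This motif stood in 3 of 17 promoters of the heat shock list and in 30 of 9629 in all (0.312%).

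Of 30 targets and regulators of Nrf2, the factor that senses electrophiles and oxidants, 21 were higher and 4 lower as counted, and 14 higher and 5 lower by the relative reading (medians 0.82 and 0.39), with 3 lower by the relative reading without LPS library 2. Slc7a11, the cystine importer, had 22.8, 9.96 and 8.83 CPM in the controls and 62.2 and 71.1 CPM with LPS. It rose more by the relative reading (2.26 and 3.47), beside like genes with a median of -1.21. Srxn1, which repairs peroxiredoxins, had 40.1, 71.8 and 68.9 CPM in the controls and 193 and 161 CPM with LPS and rose (1.55 and 1.40). Sqstm1, the autophagy receptor p62, had 253, 233 and 233 CPM in the controls and 1032 and 813 CPM with LPS and rose (1.95 and 1.21). Hmox1, haem oxygenase, had 83.7, 172 and 153 CPM in the controls and 414 and 416 CPM with LPS, passing as counted (1.61 ± 0.46) and not relatively (0.68 ± 0.49), and its counted call was lost without either LPS library (1.61 and 1.60). Nfe2l2, which encodes Nrf2 itself, had 189.6, 205 and 207 CPM in the controls and 126 and 155 CPM with LPS and fell (-0.51 and -0.86). The detoxifying enzymes Ephx1 (-1.93 and -2.16) and Mgst1 (-1.17 and -1.93) fell.

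Ppp1r15a, the phosphatase subunit GADD34 that restores translation after stress, had 20.6, 16.8 and 16.6 CPM in the control libraries and 130.0 and 174 CPM in the LPS libraries. Its groups were far apart (log2 3.08 ± 0.19 as counted and 2.92 ± 0.20 relative to like genes). Ern1, which encodes the endoplasmic reticulum sensor IRE1, had 33.3, 22.2 and 25.9 CPM in the controls and 8.84 and 9.27 CPM with LPS and fell (-1.58 and -1.03). Atf6, another sensor, had 321, 282 and 278 CPM in the controls and 125 and 113 CPM with LPS and fell (-1.30 and -0.55; relative value -0.50 and not called without LPS library 2). Of the 29 genes of endoplasmic reticulum and integrated stress, 8 were higher and 3 lower as counted, and 2 higher and 5 lower by the relative reading, with medians of 0.35 and -0.24. These counts moved with control library 1: without it 18 were higher and 7 lower as counted, and 6 and 8 relatively. With length alone corrected the relative median was 0.11, under limma the counted one was -0.071, and without LPS library 1 or 2 the relative reading called 2 and 1 lower.

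**Figure D4:**
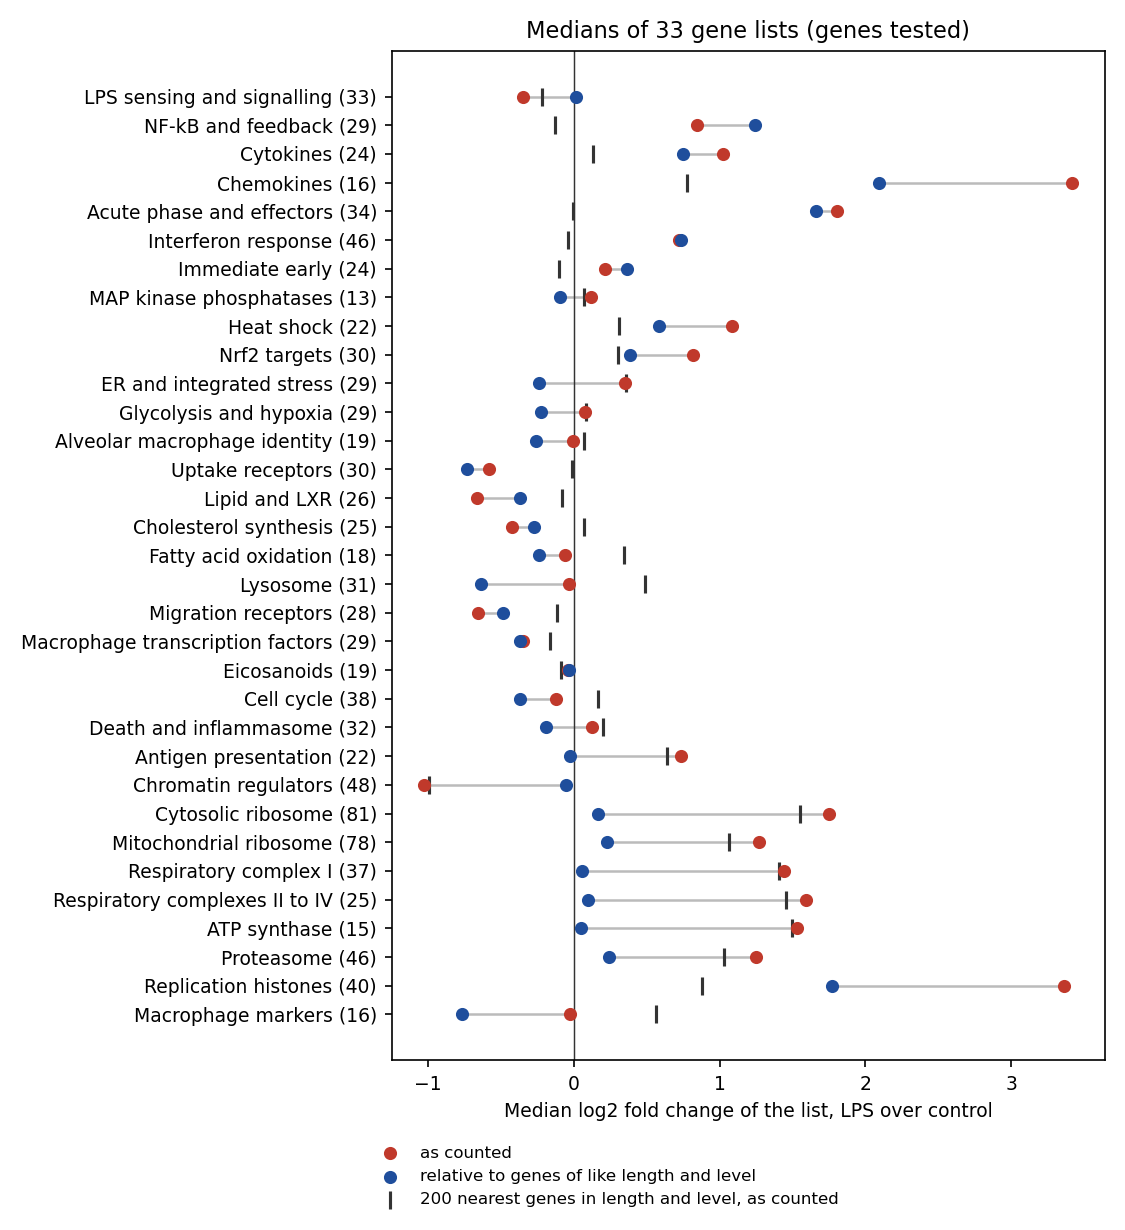
Median log2 fold change, LPS over control, of 33 gene lists (x axis; number of tested genes in brackets) as counted (red), relative to genes of like length and level (blue), and of the 200 nearest genes in length and level as counted (black ticks). Chemokines, effectors and NF-kB genes stay right of 0 by both readings, while the red points of the ribosomal, respiratory and proteasome lists sit close to their black ticks. Genes without a count in a group are not set at their bound here. The replication histones, drawn at 3.36 and 1.77, had a relative median of -1.475 with the stricter filter.

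Receptors by which macrophages take up debris and dying cells were mostly lower. Of 30 tested, 2 were higher and 17 lower as counted, and 3 higher and 18 lower by the relative reading, with medians of -0.58 and -0.73; without control library 1, 1 was higher by the relative reading, and without any other 1 library none was. Mertk, the receptor kinase for phosphatidylserine bridges on dying cells, had 10.7, 10.2 and 11.4 CPM in the control libraries and 0.545 and 0.727 CPM in the LPS libraries. It fell without overlap (-4.07 ± 0.46 as counted and -3.43 ± 0.43 relative to like genes). Mrc1, the mannose receptor, had 301, 235 and 239 CPM in the controls and 78.5 and 64.6 CPM with LPS and fell (-1.85 and -1.27). C1qa, a chain of the complement opsonin C1q, had 29.1, 36.9 and 40.1 CPM in the controls and 5.15 and 5.21 CPM with LPS and fell (-2.77 and -3.59), although its like genes had a median of 0.79. Fcgr3, an activating Fc receptor, had 538, 555 and 576 CPM in the controls and 347 and 347 CPM with LPS and fell (-0.68 and -1.80); its counted call was lost without either LPS library (-0.68 and -0.68). Fcgr2b, the inhibitory Fc receptor, had 211, 109 and 111 CPM in the controls and 484 and 520.0 CPM with LPS and rose (1.80 and 0.81); its relative call was lost without any 1 library but control library 1 (0.65 without control library 2, 0.65 without control library 3, 0.90 and 0.72 without LPS libraries 1 and 2) and in a fit of only the 5 libraries (0.81).

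**Figure D5:**
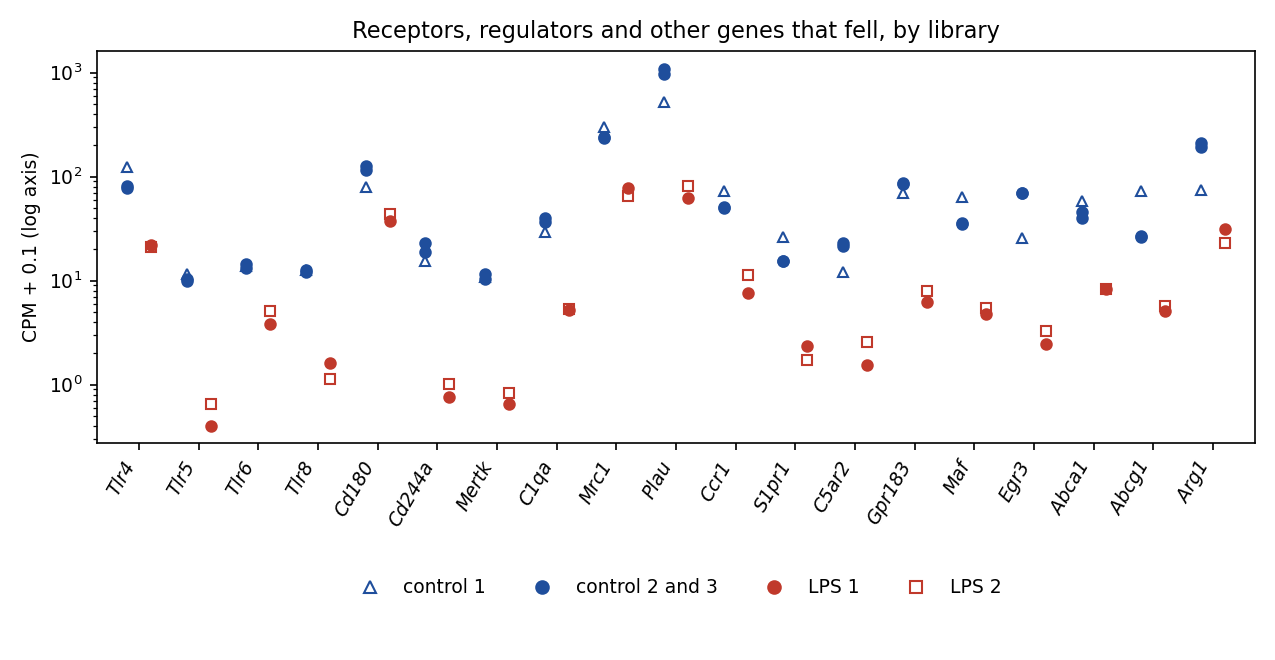
Level of 19 genes that fell, in each of the 5 libraries, as CPM + 0.1 on a log axis (blue, 3 control libraries; red, 2 LPS libraries; genes in italics on the x axis). Both red points lie below the 3 blue ones in each gene.

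Several receptors of migration signals fell. Of 28 tested, 6 were higher and 12 lower as counted, and 6 higher and 9 lower by the relative reading. Ccr1, a receptor of Ccl3 and Ccl5, had 72.5, 50.05 and 51.1 CPM in the controls and 7.51 and 11.2 CPM with LPS (-2.63 and -2.56). S1pr1, which senses sphingosine 1-phosphate, had 26.4, 15.4 and 15.2 CPM in the controls and 2.24 and 1.64 CPM with LPS (-3.29 and -2.93). C5ar2, a receptor of the complement fragment C5a, had 11.9, 21.6 and 22.8 CPM in the controls and 1.45 and 2.48 CPM with LPS (-3.25 and -2.87). None of these 3 overlapped between groups. The oxysterol receptor Gpr183 had 69.8, 86.4 and 85.5 CPM in the controls and 6.06 and 7.88 CPM with LPS and fell (-3.53 and -3.40). In the other direction, Gpr84, a receptor of medium-chain fatty acids, had 26.8, 54.98 and 54.7 CPM in the controls and 241 and 254 CPM with LPS and rose (2.44 and 1.70). Itga5, the fibronectin receptor chain, rose (1.45 and 1.76).

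Of the 19 tested genes of alveolar macrophage identity, 5 were higher and 7 lower as counted, and 2 higher and 5 lower by the relative reading; the number lower by the relative reading was 8 without control library 1 and 3 without either LPS library. Fabp4, a lipid chaperone of these cells, had 12.3, 11.8 and 13.4 CPM in the controls and 89.4 and 98.4 CPM with LPS and rose (2.91 and 1.501). Csf2rb, the shared chain of the GM-CSF receptor, had 142, 149 and 152 CPM in the controls and 69.999 and 69.9 CPM with LPS and fell (-1.08 and -0.62), as did the factor Bhlhe40 (-0.90 and -0.86). Csf1r, the receptor of macrophage colony-stimulating factor, had 709, 1017 and 1033 CPM in the controls and 615 and 487 CPM with LPS and fell (-0.74 and -0.92). Its counted call was lost without LPS library 2 (-0.58), and with length alone corrected the relative value was -0.36 and did not pass. Adgre1, which encodes F4/80, had 288, 298 and 304 CPM in the controls and 456 and 362 CPM with LPS, passing as counted (0.46 ± 0.11; 0.29 and not called without LPS library 1) and not relatively (0.21 ± 0.097). Arg1, arginase, had 75.1, 212 and 193 CPM in the controls and 31.2 and 23.1 CPM with LPS and fell without overlap (-2.56 ± 0.48 as counted and -3.36 ± 0.52 relative to like genes).

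Exporters of cholesterol fell. Abca1, which loads apolipoprotein A-I, had 58.6, 40.1 and 45.6 CPM in the control libraries and 8.17 and 8.18 CPM in the LPS libraries. Its log2 fold changes were -2.56 and -1.27, and its like genes had a median of -1.25. Abcg1, which loads HDL, had 73.3, 27.05 and 26.2 CPM in the controls and 5.03 and 5.57 CPM with LPS, with control library 1 the highest (-2.99 and -2.07). Without control library 1 the values of Abcg1 were -2.33 and -1.43, and the relative call was lost without either LPS library (-2.05 and -2.08). Of 26 lipid and LXR genes, 3 were higher and 16 lower as counted, and 3 higher and 11 lower by the relative reading, the last 6 without LPS library 1 and 7 without LPS library 2. Scd2, a fatty acid desaturase, had 1812, 1212 and 1218 CPM in the controls and 379.9 and 353 CPM with LPS and fell (-1.95 and -1.84; relative value -1.21 with length alone corrected). Of 25 cholesterol synthesis genes, 3 were higher and 11 lower as counted, and 1 higher and 9 lower by the relative reading, and without either LPS library 6 were lower as counted. Without LPS library 2, 5 were lower by the relative reading. Insig1, a sterol-sensing brake of that pathway, had 245, 247 and 236 CPM in the controls and 159 and 161 CPM with LPS and fell (-0.60 and -0.92).

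Lysosomal genes were lower relative to like genes more often than as counted. Of 31 tested, 8 were higher and 10 lower as counted, and 2 higher and 19 lower by the relative reading, with medians of -0.032 and -0.63 beside a median of 0.49 for their like genes. With length alone corrected, 10 were lower. Psap, the precursor of the saposins that activate lipid hydrolases, had 1394, 1274 and 1281 CPM in the control libraries and 511 and 448 CPM in the LPS libraries. It fell without overlap (-1.46 ± 0.14 as counted and -2.07 ± 0.16 relative to like genes; relative value -1.48 with length alone corrected). Grn, progranulin, had 692, 656 and 632 CPM in the controls and 401 and 347 CPM with LPS and fell (-0.82 and -1.54). Lgmn, asparaginyl endopeptidase, had 436, 398 and 403 CPM in the controls and 258 and 240.3 CPM with LPS and fell (-0.73 and -1.43). Ctsc, the protease cathepsin C, had 447, 483 and 467 CPM in the controls and 1124 and 1024 CPM with LPS and rose (1.21 and 1.32). Mpeg1, the pore-forming perforin-2 of macrophages, had 146, 166 and 165 CPM in the controls and 36.998 and 35.3 CPM with LPS and fell (-2.14 and -1.77).

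Of 29 genes of glycolysis and hypoxia, 10 were higher and 10 lower as counted, and 3 higher and 10 lower by the relative reading (medians 0.079 and -0.23). With length alone corrected, 12 were higher and 6 lower (median 0.05), and without LPS library 2, 5 were lower as counted and 6 relatively. Hk2, hexokinase, had 160.2, 296 and 262 CPM in the controls and 79.4 and 91.8 CPM with LPS and fell (-1.48 and -0.92; relative value -0.81 and not called without LPS library 1). Pdk1, a pyruvate dehydrogenase kinase, had 267, 253 and 249.5 CPM in the controls and 127 and 103 CPM with LPS and fell (-1.15 and -1.07). Bnip3, a mitophagy receptor induced in hypoxia, had 212, 163 and 141 CPM in the controls and 83.2 and 80.6 CPM with LPS and fell (-1.07 and -1.73). Pfkfb3, which activates phosphofructokinase, had 31.3, 30.7 and 34.6 CPM in the controls and 46.7 and 42.6 CPM with LPS and rose (0.47 and 1.04). Gapdh, the glycolytic enzyme often used as a reference, had 3875, 3596 and 3592 CPM in the controls and 12030 and 10224 CPM with LPS. As counted it was higher (1.59 ± 0.10), and relative to like genes, whose median was 1.04, it did not pass (0.21 ± 0.081), although it did with length alone corrected (0.91).

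Of 38 cell cycle genes, 6 were higher and 10 lower as counted, and 2 higher and 20 lower by the relative reading, with 13 lower by the relative reading without LPS library 1 and 13 with length alone corrected. Ccnd1, a cyclin of the G1 phase, had 503, 859 and 841 CPM in the controls and 279 and 258 CPM with LPS and fell (-1.45 and -1.56). Ccnd2, another one, had 145, 193 and 193 CPM in the controls and 44.7 and 43.6 CPM with LPS and fell (-2.002 and -1.23). Cdk1, the mitotic kinase, had 136, 159 and 163 CPM in the controls and 233 and 230.4 CPM with LPS and rose (0.60 and 0.89), as did Tyms, thymidylate synthase (1.40 and 1.65). The licensing factor Cdt1 fell (-0.67 and -1.05).

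Fas, the death receptor, had 1.04, 1.77 and 1.39 CPM in the control libraries and 26.04 and 28.2 CPM in the LPS libraries. It rose without overlap (4.27 ± 0.24 as counted and 3.91 ± 0.25 relative to like genes; relative value 2.51 with the stricter filter). Bcl2a1b, an NF-kB-induced survival gene, had 27.9, 25.98 and 24.7 CPM in the controls and 161 and 188 CPM with LPS and rose (2.73 and 1.39); reads may be shared with its near-identical copies. Nlrp1b, an inflammasome sensor, had 16.6, 36.03 and 37.2 CPM in the controls and 1.88 and 3.09 CPM with LPS and fell (-3.59 and -2.81). Of the 32 genes of death and the inflammasome, 10 were higher and 11 lower as counted (31.3% and 34.4%), near the shares of all genes tested (31.4% and 32.1%). By the relative reading 5 were higher and 8 lower (15.6% and 25%), beside 21.3% and 21.2% of all genes tested. The relative median was -0.19, and -0.13 without LPS library 2.

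Lists made mostly of short genes were higher as counted and close to their like genes. All 81 cytosolic ribosomal protein genes were higher as counted (median 1.75, like genes 1.55), and 33 were by the relative reading (median 0.16; 18 without LPS library 2 and 61 with length alone corrected). For the mitochondrial ribosome the numbers were 77 of 78 and 31, for respiratory complex I 36 of 37 and 9, and for the proteasome 43 of 46 and 18 (34 with length alone corrected). In these lists 2, 2 and 3 members were lower by the relative reading. The share higher in complex I by that reading (24.3%) was near that of all genes tested (21.3%). Some members stood above their like genes. Rps20, a protein of the small ribosomal subunit, had 143, 162 and 175 CPM in the controls and 631 and 714 CPM with LPS, and it rose (2.07 and 2.01) beside like genes with a median of 0.032. Its like genes were thus unlike those of most of its list (1.55). Mrpl17 of the mitochondrial ribosome (1.08 and 1.92) and Ndufa11 of complex I (1.85 and 1.93) rose by both readings as well, with relative values above the counted ones. The part of the gene length assigned to each of these genes in its relative value was not tested.

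A list of long genes showed the reverse. Of 48 chromatin regulators, whose median length was 7500 bases, 1 was higher and 42 lower as counted, and 6 higher and 8 lower by the relative reading (medians -1.03 and -0.053); without either LPS library, 3 were higher by the relative reading. Dnmt1, the maintenance DNA methyltransferase, had 405, 354 and 356 CPM in the controls and 158 and 158 CPM with LPS and fell (-1.23 and -0.84). Brd2, a bromodomain reader of acetylated histones, had 214, 267 and 271 CPM in the controls and 383 and 413 CPM with LPS and rose (0.67 and 0.55).

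Of 22 antigen presentation genes, 13 were higher and 2 lower as counted, and 3 higher and 4 lower by the relative reading; with length alone corrected, 5 were higher and 2 lower, with 0 lower without LPS library 2. H2-Aa, a class II chain, had no count in the controls and 1.33 and 1.76 CPM with LPS, at least 11.1-fold higher. Of 40 replication-dependent histones, most of whose mRNAs lack a poly(A) tail, 31 were higher and 2 lower as counted, and 16 higher and 4 lower by the relative reading, with medians of 2.95 and 1.36 when the 9 genes without a count in a group are set at their bound (9 were higher with a narrower span of the correction). Only 5 of them passed the stricter filter, of which 0 were higher and 4 lower by the relative reading, with a median of -1.47 in place of 1.77. Reads may be shared among these near-identical genes. H1f2, a linker histone, had 32.3, 30.1 and 29.1 CPM in the controls and 21.98 and 22.3 CPM with LPS and fell (-0.46 and -1.78).

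The readings disagreed in direction for 171 genes that were higher as counted and lower relative to like genes (1.44%) and for 136 of the reverse kind (1.14%). The most abundant of the first kind were Eef1a1 (1.05 and -0.34), Actb (0.51 and -0.64), Ftl1 (1.25 and -0.27), Pkm (0.62 and -0.35), Lyz2 (0.65 and -0.82) and Tuba1b (0.77 and -0.42). With length alone corrected the relative value was positive for Eef1a1 (0.62), Actb (0.16), Ftl1 (0.19), Pkm (0.46) and Tuba1b (0.20) and did not pass for Lyz2 (-0.33). Without LPS library 2 the relative call was lost for Pkm (-0.28), Ftl1 (-0.20) and Tuba1b (-0.40), the last also without LPS library 1 (-0.45), control library 1 (-0.37) or control library 3 (-0.42), and Ftl1 also without control library 2 (-0.26). Actb, which encodes beta-actin, had 2999.6, 4077 and 3994 CPM in the controls and 5349 and 5185 CPM with LPS. Of the second kind, Cpsf6, a factor of mRNA 3′ processing, had 177, 199 and 192 CPM in the controls and 140.4 and 141 CPM with LPS (-0.43 and 0.39).

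Large relative falls outside these lists included Plau, which encodes urokinase and had 517, 1096 and 971 CPM in the control libraries and 62.8 and 81.8 CPM in the LPS libraries. It fell without overlap (-3.57 ± 0.50 as counted and -4.13 ± 0.54 relative to like genes). Cd244a, an immune receptor, had 15.3, 22.9 and 18.6 CPM in the controls and 0.666 and 0.909 CPM with LPS and fell (-4.58 and -4.15). Ocstamp, a factor of osteoclast fusion, had 12.4, 23.1 and 24.4 CPM in the controls and 1.70 and 1.45 CPM with LPS and fell (-3.66 and -3.67; relative value -4.51 with the stricter filter). The ubiquitin ligase Rnf144b had 44.3, 40.9 and 38.9 CPM in the controls and 1.998 and 2.12 CPM with LPS and fell (-4.32 and -3.63). Across the table, 761 genes rose with a relative log2 fold change of at least 1 (6.39%) and 823 fell with one of -1 or less (6.91%), and 312 (2.62%) and 244 (2.05%) passed a size of 2.

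Of the tested genes, 28 had no count in the 3 controls and 16 none in the LPS libraries. Zdbf2, an imprinted gene, was at least 29.3-fold higher with LPS (2.72 and 5.45 CPM), a call that DESeq2 did not make. The nucleotide hydrolase Entpd4, with 5.07, 2.70 and 2.69 CPM in the controls, was at least 19.2-fold lower; its counted call was lost without control library 1 or either LPS library, and its relative call without either LPS library.

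Summed markers of red blood cells and of neutrophils were higher in the LPS libraries. The 4 adult globin genes, near-identical in pairs, summed to 0.477, 20.4 and 20.1 CPM in the controls and 4327 and 5586 CPM in the LPS libraries. Among 18 erythroid markers 8 were tested, of which 6 were higher as counted and 7 by the relative reading. Alas2, the haem synthesis enzyme of red cell precursors, had 0.347, 0.186 and 0.279 CPM in the controls and 29.97 and 33.3 CPM with LPS and rose (6.83 and 6.83; relative value 3.21 with the stricter filter). Without the globins the erythroid markers summed to 9.73 to 11.5 CPM in the controls and 43.2 and 48.4 CPM with LPS. Alas2 alone held 29.97 and 33.3 CPM of these sums with LPS, so most of the rise without globins was that of 1 gene. Of the 8 tested erythroid markers, 1 had both LPS values below all controls, and 0 were called lower by either reading. Neutrophil markers summed to 14.6 to 19.4 CPM in the controls and 32.8 and 53.0 CPM with LPS, of which Cxcr2 alone held 13.3 and 33.4 CPM. Of the 5 tested, 3 were higher and 1 lower as counted, and 3 higher and 0 lower by the relative reading. Among all 12, Ly6g had no count in the 5 libraries. Platelet markers summed to 1.49 to 4.48 CPM in the controls and 6.75 and 9.10 CPM with LPS. S100a9, an abundant neutrophil protein, had no count in the controls and 2.18 and 2.67 CPM with LPS, and the chemokine receptor Cxcr2 had 2.17, 3.49 and 4.41 CPM in the controls and 13.3 and 33.4 CPM with LPS (log2 2.80 and 3.12; 1.98 and 2.40 without LPS library 2). T and natural killer cell markers summed to 34.6 to 40.7 CPM and 22.3 and 28.3 CPM, and B cell and epithelial markers to at most 1.58 and 1.04 CPM in a library. The part of such cells or their RNA in the rises of inflammatory genes was not tested, and in these bulk libraries fewer cells of a type and less RNA per cell cannot be told apart.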

How the data were processed

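Polyadenylated RNA of 8 MH-S libraries in 3 groups was sequenced. The authors deposited 1 table with estimated counts, FPKM and TPM for each library, per the file headers, on build mm10 per the submitters' processing notes. The aligner, the counting tool and the gene annotation were not given in the sources used here. Another 4 columns of per-sample values, which match no sample, were not used, and neither were the deposited TPM values.

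The estimated counts (77.8% of those above 0 were not whole) were rounded. After filterByExpr and TMM scaling, genes were tested in edgeR 4.0.16 (quasi-likelihood, 3 groups, LPS minus control, Benjamini-Hochberg over 11911 genes) under R 4.3.3. Biological coefficient of variation was 14.5%. The relative reading repeated the fit with an offset per library, a loess surface (span 0.4) of its deviation in log2 CPM (prior count of 1) on gene length, as implied by the deposited counts and FPKM, and on mean level. Both fits were run on simulated data to which the length and level surface of these libraries was added. The fit as counted called 46.6% of unchanged genes, so a call as counted alone does not separate a gene's own change from the trend. The relative fit called 0.145%, but it removes a surface of the same form as the one added. Its result there cannot show whether the correction suits the real trend.

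Named genes were 40 chosen ones, the 15 highest and 15 lowest relative changes without overlap from 10 CPM, up to 4 per direction in each list, and up to 6 each of genes with opposite calls, genes without a count in a group, and genes from 50 CPM that differed most between the LPS libraries. The members and lists were chosen with earlier results of these data known. Alternatives were other filters, scalings and corrections, each library left out, a replicate block, DESeq2 1.42.0 and limma 3.58.1 on log2(FPKM + 1). Promoters of 9629 tested genes were matched to RefSeq by gene ID, with the first listed promoter kept for each gene.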

Additional observations from a re-analysis of the deposited data

How the results depend on the processing

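As counted, the numbers of genes higher and lower were 3751 and 3610 with only the 5 libraries, 3853 and 3689 with median-ratio scaling, 3729 and 3815 with a robust prior, 3834 and 3697 in DESeq2, 4070 and 3605 with no filter and 3344 and 3123 with a stricter one. Leaving out 1 library gave 3056 to 3838 higher and 2916 to 3966 lower. An absolute log2 fold change of at least 1 as a further condition left 1774 and 1845, and 852 and 932 by the relative reading. With limma on log2(FPKM + 1), which leaves out the TMM scaling, the counted numbers were 2113 and 5924. The TMM factors were 1.09 to 1.13 in the control libraries and 0.779 and 0.803 in the LPS libraries. The part of this scaling in the split was not tested. By the relative reading, leaving out 1 library gave 1652 to 2717 higher and 1469 to 2726 lower, with 1652 and 1469 without LPS library 1 and 1728 and 1561 without LPS library 2, where a single LPS library is assumed to vary like the other groups. The relative numbers were 2460 and 2272 with 5 libraries, 2984 and 2471 with length alone corrected, 2959 and 2508 with length and GC content, 2534 and 2490 with a span of 0.2, and 2018 and 2182 with the stricter filter.

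These named genes changed direction, and the cause was not tested. Under limma Adgre1 was at -0.035 and Pfkfb3 at -0.045. By the relative reading Fpr1 was at -0.63 with the stricter filter. With length alone corrected Actb was at 0.16, Eef1a1 at 0.62, Pkm at 0.46, Ftl1 at 0.19 and Tuba1b at 0.20, and with length and GC content these were 0.20, 0.57, 0.51, 0.27 and 0.26. Minus the median of 200 like genes Eef1a1 was at 0.13. With 1 library left out, the counted values ran from -0.73 to 0.26 for Rsrp1 (the highest without LPS library 1) and from -0.11 to 0.98 for Dclre1c (the lowest without LPS library 2). The relative values ran from -0.0026 to 0.40 for Cd14 (the lowest without control library 1), from -0.10 to 0.85 for Cebpb (the lowest without LPS library 1), from -0.013 to 0.85 for Tnf and from -0.21 to 0.43 for Rps29 (both lowest without LPS library 2).

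With the replicate number as a block, 3364 genes were higher and 3413 lower as counted, and 1961 and 1981 by the relative reading. Deviations of same-numbered control and LPS libraries correlated at 0.20 and 0.193, but those of control and LPS+RCMNs libraries at -0.43, -0.474 and 0.357. The deviations of the 2 LPS libraries mirror each other by construction, and the labels do not say what a replicate number stands for. These correlations therefore cannot tell whether same-numbered samples shared a culture or day. With 2 LPS libraries, and near 20 M counts a library, the precision is lowest for genes under 1 CPM.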

Other observations

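The deposited counts and FPKM imply a length for each gene in each library, which follows the transcripts to which the authors' counting assigned the reads. Among 6460 genes with at least 5 FPKM in the 5 libraries, this length was over 10% shorter with LPS, without overlap between groups, for 225 genes and longer for 29. The same size of difference separated LPS library 2 from LPS library 1 in 65 genes and control library 1 from the other controls in 52. Those 2 numbers count either direction and carry no condition on overlap, so they are only a rough scale. Cbx5, which encodes the heterochromatin protein HP1-alpha, had an implied length of 8737, 8718 and 8704 bases in the controls and 3595 and 3517 bases with LPS. Smarcad1, a chromatin remodeller, had 4020, 4069 and 4046 bases and then 2012 and 2094. Aoah, an enzyme that detoxifies LPS by removing acyl chains, had 2781, 2783 and 2812 bases and then 1606 and 1577. The DNA polymerase gene Polb went the other way, with 1235, 1343 and 1303 bases in the controls and 1764 and 2142 with LPS. These lengths are estimates of the deposited processing, and no test was run on them. The LPS libraries also carry the trend of higher values in shorter genes, and its part in these lengths was not tested. These 4 genes were chosen after their values were seen.

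The LPS libraries also differed from each other in some genes from 50 CPM. H2-T23, a nonclassical class I gene, had 56.4 CPM in LPS library 1 and 113.4 CPM in LPS library 2. Dclre1c, a DNA repair nuclease, had 40.9 and 87.1 CPM. Rps29, a short ribosomal protein gene, had 360.7 and 672.7 CPM. Cebpb ran the other way, with 69.0 and 33.9 CPM.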
